A study of Homo sapiens with 9 samples.

Results

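DNA replication and the entry into S phase rest on a set of proteins that are made together late in G1. The 57 genes described here were picked by name for that role. The rule uses no measured value, but the list was drawn up with earlier results of these data known. Each was found once in every library, among 33216 genes in all. They comprise 7 genes of the MCM helicase group, 5 of GINS and CDC45, 4 of licensing control, 7 polymerase and primase subunits, 3 genes of the sliding clamp and Okazaki fragment joining, 8 of the clamp loader and RPA, 4 of nucleotide supply, 7 of fork protection and repair, 8 of chromatin at the fork and 4 G1/S regulators.

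The cells were CAL-27, a widely used line derived from squamous cell carcinoma of the human tongue. Cultures taken 48 h after transfection were sequenced in 3 groups with 3 libraries each. They were Control, cells given siRNA against LEF1 (siLEF1) and cells given siRNA against KDM4A (siKDM4A). LEF1 is a transcription factor that works with β-catenin in the Wnt pathway, and KDM4A is a histone lysine demethylase. What the Control cells received is not given in the sources used here. The study lists more than 1 siRNA for each target and does not say which was used for these cultures. All results rest on a transient knockdown in 1 cell line, and each pair of comparisons shares a group, since both knockdowns were set against the same Control libraries and then against each other.

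In G1 a ring of MCM2 to MCM7 is loaded onto origins by ORC, CDC6 and CDT1, and geminin (GMNN) blocks CDT1 once S phase has begun. CDC45 and the GINS complex turn the loaded ring into the active helicase. Primase and polymerase alpha start the new strands, polymerases delta and epsilon extend them on the PCNA clamp that RFC loads, and FEN1 and LIG1 process and join the lagging strand. Factors of the E2F family drive transcription of many of these genes at the G1/S boundary.

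Levels are given as FPKM, a read number divided by gene length and library size, so that they can be compared between genes. The totals behind these values were 15263085 to 17126523 reads per library, nearly the same as the reads recovered on genes. Members were well covered, with 128 to 7000 reads each in any library. LEF1 was at 1.19, 0.997 and 1.27 FPKM in Control and at 0.27, 0.246 and 0.23 FPKM in siLEF1, or 21.6% of the Control mean. KDM4A was at 16.5, 16.5 and 16.6 FPKM in Control and at 2.78, 2.76 and 2.78 FPKM in siKDM4A, or 16.8%. KDM4A was also lower in siLEF1 (84.9% of Control, log2 fold change -0.23, SE 0.029, adjusted p = 0.0011). All 9 squamous markers were detected, and their sum was at least 1211 FPKM in every Control library and 1342 in every siLEF1 library. In siKDM4A it was 475 to 491 FPKM. The markers did not all go one way there, since mean KRT14 was 25.8 FPKM in Control and 0.758 FPKM in siKDM4A, while CDH1 was at 59.4 and 65.1 FPKM and EPCAM at 73.5 and 111 FPKM. Sums were at most 6.25 FPKM for 5 fibroblast markers and 4.04 for 5 leukocyte markers, with PTPRC at 0 FPKM in Control and siKDM4A and 0.00719 in siLEF1. The 3 endothelial markers summed to no more than 1.25 FPKM in the Control libraries, 2.39 in siLEF1 and 2.86 in siKDM4A, most of it CDH5. The part of these marker differences in the results below was not tested.

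Promoter sequence is shown for a few members because E2F factors are known to act through short letters near the start of such genes. RefSeq windows (GRCh38.p14), from 250 bases before to 50 bases after a gene's start, were matched for 47 of the 57 members, with 64 windows. The letters searched were TTTGGCGC, TTTGCCGC, TTTCGCGC and TTTCCCGC on both strands, and overlapping matches were kept. They were present in at least 1 window for 29 of the 47 members (61.7%) and in 46.9% of member windows, against 3.31% of all 35116 windows. CCAAT, also on both strands, was in 56.2% of member windows and 34.6% of all windows. CTTTGA, a core of LEF1 sites that was added after the data had been seen, was in 10.9% of member windows and 12.9% of all windows. A match describes these letters and is not evidence of binding.

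The stretches below are the 160 bases before the start, 5′ to 3′ on the gene's own strand, with the E2F letters in capitals. For a gene with more than 1 start, the window with the most matches was taken. GINS2 is at chr16:85688955-85689114 (minus strand), UHRF1 at chr19:4909341-4909500 (plus strand, 1 of 3 starts), MCM6 at chr2:135876444-135876603 (minus strand) and E2F1 at chr20:33686386-33686545 (minus strand). GINS2 and UHRF1 are among the members that moved most, MCM6 is shown for a subunit of the helicase ring with the letters at more than 1 place, and E2F1 for the factor itself. FEN1 at chr11:61792751-61792910 (plus strand) and RFC4 at chr3:186806483-186806642 (minus strand) also moved but held no match, and are shown for contrast.
GINS2: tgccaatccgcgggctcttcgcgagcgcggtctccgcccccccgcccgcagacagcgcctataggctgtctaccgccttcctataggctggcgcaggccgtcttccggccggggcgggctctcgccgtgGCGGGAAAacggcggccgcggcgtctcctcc
UHRF1: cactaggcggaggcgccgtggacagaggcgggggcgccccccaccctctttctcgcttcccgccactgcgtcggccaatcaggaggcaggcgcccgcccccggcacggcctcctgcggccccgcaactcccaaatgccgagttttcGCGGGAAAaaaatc
MCM6: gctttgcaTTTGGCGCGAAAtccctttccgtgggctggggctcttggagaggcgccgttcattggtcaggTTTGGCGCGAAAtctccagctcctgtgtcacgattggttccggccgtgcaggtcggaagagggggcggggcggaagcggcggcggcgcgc
E2F1: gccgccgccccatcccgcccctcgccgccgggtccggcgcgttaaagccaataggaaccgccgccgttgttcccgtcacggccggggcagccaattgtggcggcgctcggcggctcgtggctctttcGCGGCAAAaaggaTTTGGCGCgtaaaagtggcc
FEN1: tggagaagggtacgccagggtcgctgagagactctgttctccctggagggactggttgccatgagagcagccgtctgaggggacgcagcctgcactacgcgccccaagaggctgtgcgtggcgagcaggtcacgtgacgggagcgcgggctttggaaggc
RFC4: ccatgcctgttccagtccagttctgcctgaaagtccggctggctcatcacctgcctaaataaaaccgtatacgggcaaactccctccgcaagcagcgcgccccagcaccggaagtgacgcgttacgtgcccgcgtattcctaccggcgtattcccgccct

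All members were expressed, at levels from low to abundant. In Control, means ran from 1.78 FPKM for GINS4 to 149 FPKM for PCNA, with a median of 16.1 FPKM over the 57 genes. After PCNA came MCM7 (80.9 FPKM), FEN1 (64.1), MCM3 (57) and MCM2 (53.2), and each of these stood apart from its neighbour in all 3 libraries. MCM4, UHRF1 and RRM1 followed at 43.7, 41.8 and 41.3 FPKM, and their libraries overlapped. The lowest, below 3 FPKM, were CCNE2, E2F2 and GINS4. The median over members was 15.8 FPKM in siLEF1 and 19 FPKM in siKDM4A.

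In siLEF1, members lay on both sides of Control, mostly by small amounts and in shares close to those of other genes of similar level. Genes are called raised or lowered below at an adjusted p under 0.05 in limma together with a fold change above 1.5, and higher or lower at that p alone. In siLEF1 against Control, 1 member was lowered, namely UHRF1, where 5.31% of all 21831 genes tested were lowered. With limma 0 were raised (6.31% of all genes), as were 0 at an unadjusted p under 0.05 with the same fold change and 0 with voom on the recovered reads. At any size, 14 members were higher (24.6% of members, 15.7% of all genes) and 17 were lower (29.8% of members, 16.9% of all genes). Among the 12661 genes averaging 1 FPKM or more, a level that all members reach, 23.3% were higher and 26.9% lower. The median log2 fold change was -0.03 over members and over genes of that level, and -0.01 over all genes. Of the 14 higher members, 5 stayed past the p threshold whichever library was left out, and without Control replicate 3 the count was 6. Of the 17 lower members, 13 stayed past it whichever library was left out.

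Loss of KDM4A was accompanied by higher levels of a majority of the set, again by small amounts. In siKDM4A against Control, 33 of 57 members were higher (57.9%), where 14.7% of all 21253 genes tested were higher. Lower members numbered 8 (14% of members, 18.3% of all genes), and 16 did not pass. With the fold threshold, GINS2, GINS1 and TIPIN were raised (4.23% of all genes) and 0 were lowered with limma (7.8% of all genes), with 0 also at an unadjusted p under 0.05 and with voom. Among the 12487 genes at 1 FPKM or more, 23.2% were higher and 27.1% lower. The median log2 fold change was 0.21 over members, against -0.05 over all genes and -0.03 over those at 1 FPKM or more. Of the 33 higher members, 29 stayed past the p threshold without any single library, and all 33 did when the libraries were scaled to a common median ratio. Of the 8 lower members, 5 did so in each case. In RNA from whole cultures, a different number of cells in S phase and a different amount of RNA per cell cannot be told apart. In separate assays of CAL-27 cells, the study reported a smaller share labelled with EdU, a marker of DNA synthesis, after knockdown of either gene. EdU was given at an earlier time after transfection than the 48 h of these libraries. The study also reported arrest in G1. How these assays bear on the RNA values was not tested.

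**Figure D1:**
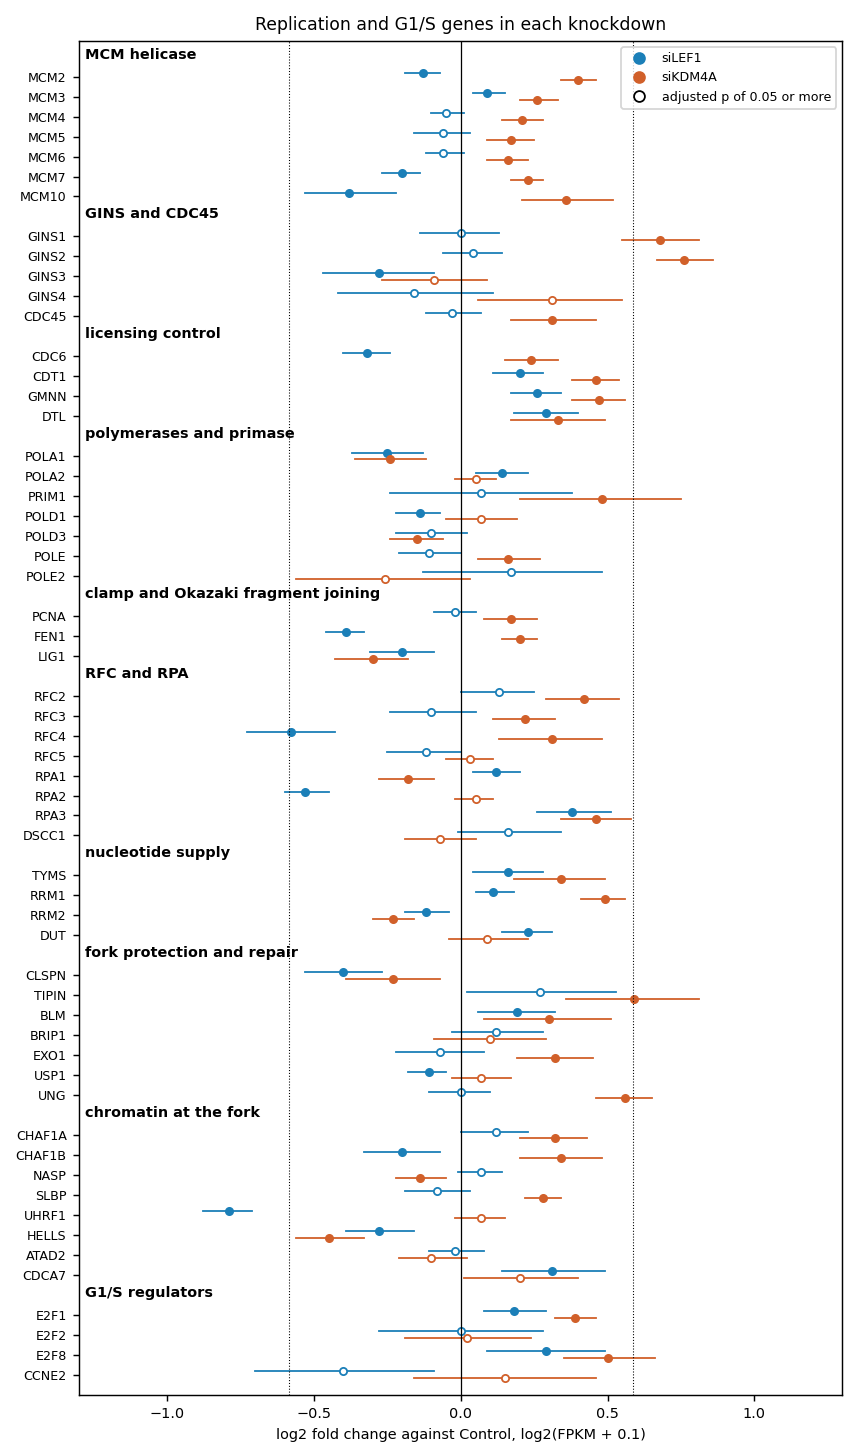
Log2 fold change of each of the 57 members against Control on the log2(FPKM + 0.1) scale, by subgroup, for siLEF1 (blue) and siKDM4A (orange), with limma's 95% intervals from 3 against 3 libraries; open points have an adjusted p of 0.05 or more and dotted lines mark a 1.5-fold change. Most orange points lie right of 0, with a median of 0.21, while blue points lie on both sides, with UHRF1 furthest left at -0.79.

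Set directly against each other, the knockdowns also differed, with a majority of members higher in siKDM4A than in siLEF1. Here 34 members were higher (59.6%, against 16.8% of all 21493 genes) and 5 were lower (8.77%, against 20.1%). RFC4, UHRF1, MCM10, GINS2, GINS1 and FEN1 were raised (5.28% of all genes) and 0 were lowered with limma (10% of all genes), with 0 also at an unadjusted p under 0.05 and with voom. The median log2 difference, siKDM4A minus siLEF1, was 0.21 over members, -0.06 over all genes and -0.01 over the 12520 genes at 1 FPKM or more. POLE2, RPA1, RRM2, NASP and HELLS were the lower members, of which POLE2, RPA1 and NASP stayed past the threshold without any single library. FEN1 was just inside the fold threshold at a log2 difference of 0.59 and RPA2 just outside it at 0.58.

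**Figure D2:**
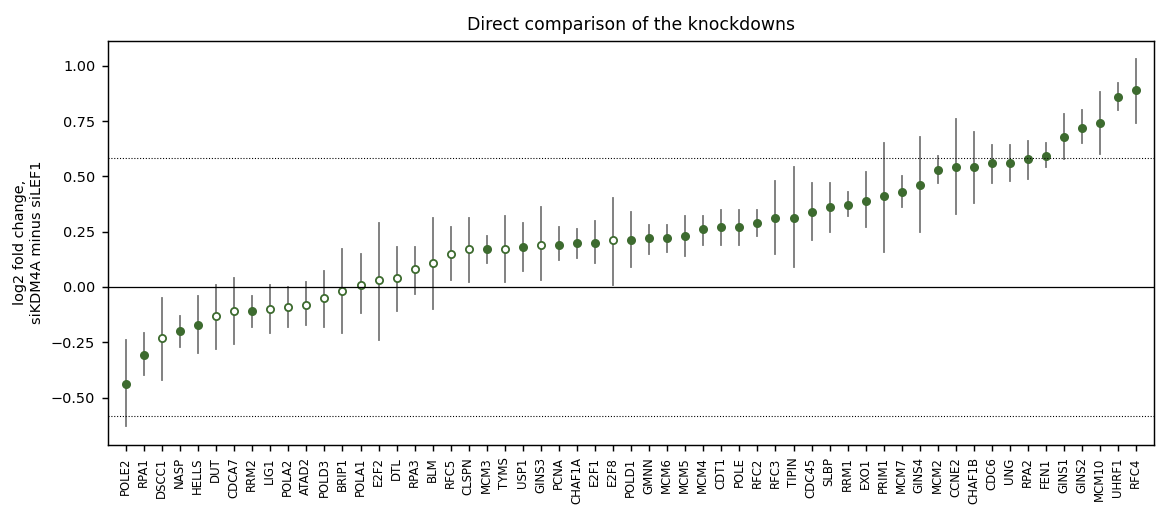
Log2 difference between siKDM4A and siLEF1 for each member, ordered by size, with limma's 95% intervals from 3 against 3 libraries; filled points have an adjusted p below 0.05 and dotted lines mark a 1.5-fold change. The order runs from POLE2 at -0.44 to RFC4 at 0.89, and 6 members lie above the upper line.

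The 6 subunits of the MCM2 to MCM7 ring, the motor of the replicative helicase, were all higher in siKDM4A than in Control and than in siLEF1. Against Control their log2 fold changes ran from 0.16 for MCM6 to 0.40 for MCM2, and against siLEF1 from 0.17 for MCM3 to 0.53 for MCM2. All 6 stayed past the p threshold in both comparisons without any single library and with scaled libraries. In siLEF1 against Control fewer subunits passed. MCM2 and MCM7 were lower (-0.13 and -0.20), MCM3 was higher (0.09, held in 2 of the 6 fits that each left out a library), and MCM4, MCM5 and MCM6 did not pass (-0.05, -0.06 and -0.06).

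Some members share exon bases with a neighbour in GENCODE 29 (GRCh38), 6 with a gene on the same strand and 19 with one on the other strand, and 9 have a numbered pseudogene. Reads there may not belong to the member alone. MCM7, the most abundant of the ring, stands at chr7:100092728-100101940 on the minus strand, and 392 of its 4386 exon bases overlap AP4M1 on the other strand. It was at 81, 80.4 and 81.4 FPKM in Control, 71.4, 71.7 and 67.6 FPKM in siLEF1 and 96.3, 94.6 and 93.2 FPKM in siKDM4A. The 3 groups did not overlap, with siLEF1 lowest. The fold change was 0.868 in siLEF1 (log2 -0.20, SE 0.028, adjusted p = 0.0018), 1.17 in siKDM4A (0.23, SE 0.023, adjusted p = 0.00043) and 1.35 between the knockdowns (0.43, SE 0.030, adjusted p = 6.9e-05). MCM2, which carries histones as well as being part of the ring, rose from a Control mean of 53.2 ± 0.779 FPKM (SD, n = 3) to 70.2 ± 1.21 FPKM in siKDM4A. The ratio of MCM2 to MCM5, computed within each library, was 1.61 ± 0.0555 in Control, 1.53 ± 0.0409 in siLEF1 and 1.89 ± 0.073 in siKDM4A, whose libraries lay above those of the other groups.

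MCM10, which joins the helicase as it is switched on and is not part of the ring, had the widest span of the group. Its levels were 4.28, 3.87 and 4.2 FPKM in Control, 3.2, 3.14 and 3.08 FPKM in siLEF1 and 5.21, 5.19 and 5.58 FPKM in siKDM4A. Every siLEF1 library was below and every siKDM4A library above the Control range. It was lower in siLEF1 (log2 -0.38, SE 0.065, adjusted p = 0.0046), higher in siKDM4A (0.36, SE 0.064, adjusted p = 0.0052) and raised 1.67-fold in the direct comparison (0.74, SE 0.058, adjusted p = 0.00011). MCM10 lies at chr10:13161554-13211104 on the plus strand, and its window held no E2F letters.

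**Figure D3:**
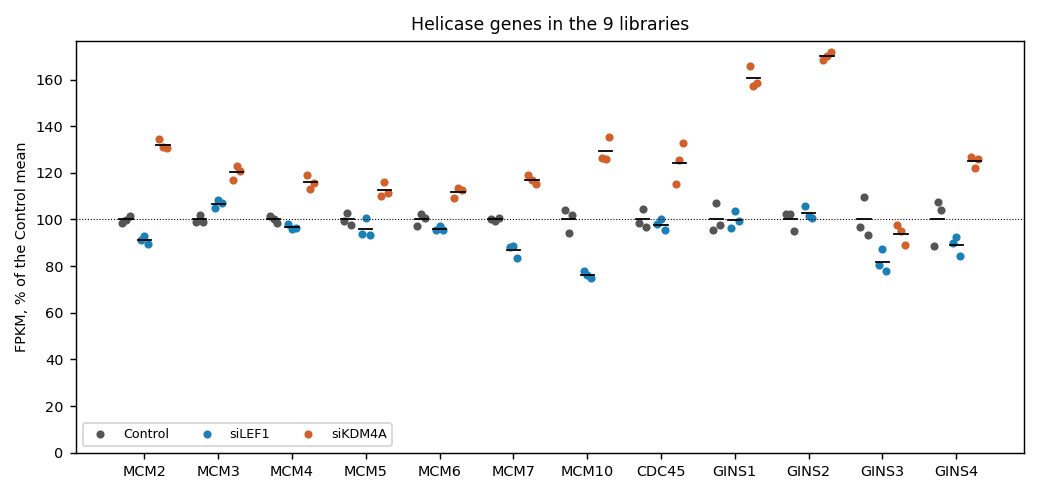
FPKM of the 12 helicase genes in each of the 9 libraries as a percent of the gene's Control mean, with bars at the group means. The siKDM4A points of MCM2 to MCM7 and MCM10 lie above all Control points, and GINS1 and GINS2 stand furthest out at 161% and 170% of the Control mean.

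Among GINS and CDC45, the partners that complete the helicase, GINS1 and GINS2 were raised in siKDM4A and did not pass in siLEF1. GINS2 was at 12.7, 12.7 and 11.8 FPKM in Control, 13.1, 12.6 and 12.5 FPKM in siLEF1 and 20.9, 21.1 and 21.3 FPKM in siKDM4A. The siKDM4A libraries stood clear of all others, while Control and siLEF1 overlapped. The fold change was 1.7 against Control (log2 0.76, SE 0.040, adjusted p = 3.2e-05) and 1.65 against siLEF1 (0.72, SE 0.031, adjusted p = 9.8e-06), and siLEF1 against Control gave 0.04 (95% interval -0.06 to 0.14, adjusted p = 0.51). The gene lies at chr16:85676198-85690073 on the minus strand, and its E2F letters, shown above, begin 31 bases before the start.

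GINS1 was likewise raised. Its values were 8.73, 9.8 and 8.94 FPKM in Control, 8.83, 9.49 and 9.08 FPKM in siLEF1 and 15.2, 14.4 and 14.5 FPKM in siKDM4A. Again only the siKDM4A libraries stood apart, with a 1.6-fold rise against Control (log2 0.68, SE 0.054, adjusted p = 0.00016) and against siLEF1 (0.68, SE 0.043, adjusted p = 4.6e-05). The siLEF1 fold change was 0.998 (95% interval of the log2 value -0.14 to 0.13). GINS1 is at chr20:25407727-25452628 on the plus strand, with E2F letters beginning 5 bases after the start.

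The other GINS subunits did not pass in siKDM4A against Control. GINS4, the lowest member, had means of 1.78 ± 0.173, 1.58 ± 0.0764 and 2.22 ± 0.0466 FPKM in Control, siLEF1 and siKDM4A. Its log2 fold change of 0.31 in siKDM4A did not pass (adjusted p = 0.06), while its direct difference of 0.46 did (SE 0.088, adjusted p = 0.0061). The siKDM4A value against Control passed with scaled libraries (0.34) and with voom, but not with the replicate block. None of the 6 fits that left out a library held it. GINS3 was lower in siLEF1 (-0.28, adjusted p = 0.036), a call held in 1 of the 6 fits that each left out a library and lost with scaled libraries. It gave -0.09 in siKDM4A (adjusted p = 0.44). The 4 proteins form a complex of equal parts, but transcripts were measured here and not proteins. The ratio of GINS2 to GINS4 transcript was 7.01 ± 0.873 in Control, 8.06 ± 0.364 in siLEF1 and 9.5 ± 0.22 in siKDM4A.

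CDC45, a core part of the active helicase and the most abundant of the group in Control, was at 15.1, 16 and 14.8 FPKM in Control, 15, 15.3 and 14.6 FPKM in siLEF1 and 17.6, 19.2 and 20.3 FPKM in siKDM4A. Only siKDM4A stood apart. It rose 1.24-fold against Control (log2 0.31, SE 0.059, adjusted p = 0.0068) and 1.27-fold against siLEF1 (0.34, SE 0.055, adjusted p = 0.003).

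All 4 licensing genes were higher in siKDM4A than in Control, by 0.24 to 0.47 on the log2 scale, and each stayed so without any single library. In siLEF1 they split, with CDT1, GMNN and DTL higher (0.20, 0.26 and 0.29) and CDC6 lower (-0.32). CDC6, which loads the ring together with CDT1, was at 23.1, 22.6 and 24 FPKM in Control, 18.7, 18.3 and 18.9 FPKM in siLEF1 and 26.3, 28.3 and 27.7 FPKM in siKDM4A. No group overlapped another. The direct fold change was 1.47 (log2 0.56, SE 0.035, adjusted p = 4.7e-05), with 0.802 in siLEF1 against Control (adjusted p = 0.00046) and 1.18 in siKDM4A against Control (adjusted p = 0.0037). CDC6 lies at chr17:40287633-40304657 on the plus strand.

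GMNN encodes geminin, the inhibitor of CDT1. Its levels rose from 20, 18.7 and 19.8 FPKM in Control to 23.1, 23.6 and 23.1 FPKM in siLEF1 and 27.1, 27.6 and 26.4 FPKM in siKDM4A. The groups were ordered without overlap. The fold change was 1.19 in siLEF1 (log2 0.26, SE 0.034, adjusted p = 0.0016), 1.39 in siKDM4A (0.47, SE 0.037, adjusted p = 0.00015) and 1.16 between the knockdowns (0.22, SE 0.029, adjusted p = 0.0012). CDT1 kept step with its inhibitor, since the CDT1 to GMNN ratio was 0.88 ± 0.0238 in Control, 0.845 ± 0.0356 in siLEF1 and 0.876 ± 0.0315 in siKDM4A, with overlapping libraries. DTL, a substrate receptor of the ubiquitin ligase that removes CDT1 in S phase, rose in both knockdowns to means of 11.7 and 12 FPKM from 9.53 FPKM, and the knockdowns did not differ detectably (log2 0.04, 95% interval -0.11 to 0.18).

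The polymerase and primase subunits went in both directions. In siKDM4A, PRIM1 and POLE were higher (log2 0.48 and 0.16), POLA1 and POLD3 lower (-0.24 and -0.15), and POLA2, POLD1 and POLE2 did not pass. The POLE call was held in 2 of 6 fits that left out a library and was lost with the replicate block, and the POLD3 call was held in 3 of 6 and lost with scaled libraries (-0.12). In siLEF1, POLA2 was higher (0.14), POLA1 and POLD1 lower (-0.25 and -0.14), and the other 4 did not pass. POLA1, the catalytic subunit of polymerase alpha, was at 7.03 ± 0.331 and 7.09 ± 0.322 FPKM in siLEF1 and siKDM4A, against 8.38 ± 0.268 FPKM in Control, with a direct difference of 0.01 (95% interval -0.12 to 0.15).

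PRIM1, the catalytic subunit of primase, was at 7.3, 7.11 and 5.59 FPKM in Control, 6.21, 6.8 and 7.95 FPKM in siLEF1 and 8.63, 9 and 10.2 FPKM in siKDM4A. Control and siLEF1 overlapped and both spread widely, with siKDM4A above them. The log2 fold change in siKDM4A was 0.48 (SE 0.114, adjusted p = 0.018). The call was held in 3 of 6 fits that left out a library and was lost with the replicate block. A stretch of 33 of its 2437 exon bases is shared with NACA on the same strand, a gene at 42.9 FPKM. POLA2, the second subunit of polymerase alpha and the most abundant of the group, was at 21, 20.4 and 20.8 FPKM in Control, 23.8, 21.9 and 22.9 FPKM in siLEF1 and 21.5, 21.7 and 21.2 FPKM in siKDM4A. It was higher in siLEF1 by 0.14 (SE 0.037, adjusted p = 0.029), held in 1 of 6 such fits, and gave 0.05 in siKDM4A (adjusted p = 0.24). POLE2, a subunit of polymerase epsilon, had the lowest value in the direct comparison at -0.44 (SE 0.080, adjusted p = 0.0053), with means of 5.45 FPKM in siLEF1 and 4 FPKM in siKDM4A.

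PCNA and FEN1 were higher in siKDM4A, and LIG1 was lower. PCNA, the clamp and the most abundant member, was at 152, 143 and 152 FPKM in Control, 150, 144 and 146 FPKM in siLEF1 and 167, 174 and 162 FPKM in siKDM4A. Only the siKDM4A libraries stood apart, by 1.13-fold (log2 0.17, SE 0.037, adjusted p = 0.012), and siLEF1 gave -0.02 (95% interval -0.09 to 0.05). PCNA lies at chr20:5114953-5126626 on the minus strand, and its processed copies PCNAP3 and PCNAP4 were at 0.00834 and 0.0914 FPKM.

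FEN1, the nuclease that trims the flaps of Okazaki fragments, was at 65.8, 63.9 and 62.7 FPKM in Control, 48.3, 49.8 and 48.2 FPKM in siLEF1 and 73.2, 74.1 and 73.7 FPKM in siKDM4A. All siLEF1 libraries were below and all siKDM4A libraries above Control. The fold change was 0.761 in siLEF1 (log2 -0.39, SE 0.028, adjusted p = 9.3e-05), 1.15 in siKDM4A (0.20, SE 0.026, adjusted p = 0.0013) and 1.51 between the knockdowns (0.59, SE 0.022, adjusted p = 6.3e-06). FEN1 stands at chr11:61792637-61797244 on the plus strand, and 49 of its 2478 exon bases are shared with FADS2 and 166 with TMEM258 on the other strand. LIG1, the ligase that seals the nicks left after trimming, fell by 0.20 in siLEF1 (adjusted p = 0.014) and by 0.30 in siKDM4A (adjusted p = 0.0047). Within libraries, FEN1 stood at 7.71 ± 0.49 times the level of LIG1 in Control, 6.76 ± 0.0591 in siLEF1 and 10.9 ± 0.363 in siKDM4A.

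The clamp loader and RPA held the largest difference between the knockdowns. RFC4, a small subunit of the loader RFC, was at 16.7, 14.7 and 14.5 FPKM in Control, 10.4, 10.4 and 9.74 FPKM in siLEF1 and 17.3, 19.9 and 19.6 FPKM in siKDM4A. Every siLEF1 library was below Control and every siKDM4A library above it. The direct fold change was 1.85 (log2 0.89, SE 0.061, adjusted p = 6.5e-05). In siLEF1 the fold change of 0.669 (-0.58, SE 0.062, adjusted p = 0.0006) lay just outside the fold threshold, and voom gave -0.59 and a call. The rise of 0.31 in siKDM4A (SE 0.074, adjusted p = 0.019) was held in 2 of 6 fits that left out a library and was lost with the replicate block. RFC4 is at chr3:186789880-186807058 on the minus strand, and 21 of its 2997 exon bases overlap EIF4A2 on the other strand, a gene at 40.7 FPKM. RFC2 and RFC3 were higher in siKDM4A (0.42 and 0.22), while RFC5 did not pass in any comparison.

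RPA, the trimer that coats single-stranded DNA, showed a different course for each subunit. RPA1, the large subunit, was at 29.3, 30.5 and 30.7 FPKM in Control, 34, 32.2 and 32.2 FPKM in siLEF1 and 26, 25.9 and 27.8 FPKM in siKDM4A. The groups did not overlap, and siKDM4A was the lowest. It was lower in siKDM4A (log2 -0.18, SE 0.039, adjusted p = 0.011), lower than in siLEF1 (-0.31, SE 0.039, adjusted p = 0.0011) and higher in siLEF1 than in Control by 0.12 (adjusted p = 0.033), which none of the 6 fits without a library held. RPA2 fell to 69.3% of Control in siLEF1 (log2 -0.53, adjusted p = 5.4e-05) and did not pass in siKDM4A (0.05, adjusted p = 0.23). RPA3, the small subunit, was higher in both, by 0.38 and 0.46. The ratio of RPA2 to RPA1 was 1.08 ± 0.019 in Control, 0.688 ± 0.00304 in siLEF1 and 1.27 ± 0.0576 in siKDM4A, with no overlap between groups.

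Of the genes of nucleotide supply, the subunits of ribonucleotide reductase moved apart in siKDM4A. RRM1, the large subunit, was at 41, 42.6 and 40.4 FPKM in Control, 45.2, 44.2 and 44.7 FPKM in siLEF1 and 57, 57.6 and 59.3 FPKM in siKDM4A. The groups were ordered without overlap. It was 1.4-fold higher in siKDM4A (log2 0.49, SE 0.031, adjusted p = 6.4e-05) and 1.3-fold higher than in siLEF1 (0.37, SE 0.025, adjusted p = 5.6e-05). The siLEF1 value of 0.11 (adjusted p = 0.022) was held in 2 of 6 fits that left out a library and was lost with the replicate block. RRM1 lies at chr11:4094707-4138876 on the plus strand.

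RRM2, the small subunit whose level is known to follow S phase, went the other way. Its means were 29.1 ± 0.566 FPKM in Control, 26.8 ± 0.719 in siLEF1 and 24.8 ± 0.433 in siKDM4A, or log2 fold changes of -0.12 (adjusted p = 0.026) and -0.23 (adjusted p = 0.0013). The siLEF1 call was held in 2 of 6 fits that left out a library and lost with scaled libraries (-0.09). The ratio of RRM2 to RRM1 was 0.704 ± 0.00654 in Control, 0.6 ± 0.0211 in siLEF1 and 0.428 ± 0.00615 in siKDM4A. These ratios were ordered without overlap. Of its exon bases, 1077 of 5323 are shared with AC007240.1 on the same strand, a gene at 0.184 FPKM. TYMS, which makes thymidylate, was higher in siKDM4A (0.34, adjusted p = 0.0072), and 967 of its 2470 exon bases overlap ENOSF1 on the other strand. DUT, which removes dUTP, was higher in siLEF1 (0.23, adjusted p = 0.0034) and did not pass in siKDM4A (0.09, adjusted p = 0.28).

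In fork protection and repair, TIPIN was raised in siKDM4A, and UNG, EXO1 and BLM were higher there. TIPIN, a partner of TIMELESS that steadies the fork, was at 5.01, 6.1 and 5.14 FPKM in Control, 6.91, 7.02 and 5.75 FPKM in siLEF1 and 7.41, 8.56 and 8.54 FPKM in siKDM4A. Control and siLEF1 overlapped, and siKDM4A lay above both. The rise was 1.5-fold (log2 0.59, SE 0.095, adjusted p = 0.0035), which is just inside the fold threshold. The log2 value fell outside it with a pseudocount of 1 FPKM (0.52), without Control replicate 1 (0.53) or 3 (0.55) and without siKDM4A replicate 2 (0.55) or 3 (0.55), while every fit that left out a library kept the adjusted p below 0.05. UNG, which removes uracil from DNA, was just outside the threshold at 0.56 (SE 0.040, adjusted p = 0.00011), with means of 29.9 FPKM in Control and 43.9 FPKM in siKDM4A and a value of 0.00 in siLEF1 (95% interval -0.11 to 0.10).

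CLSPN, the mediator of the replication checkpoint, fell by 0.40 in siLEF1 (SE 0.054, adjusted p = 0.0017). Its value of -0.23 in siKDM4A (adjusted p = 0.039) was held in none of the 6 fits that left out a library and was not held with scaled libraries. USP1, a deubiquitinase that acts on PCNA and the most abundant of the group in Control, was at 36.6, 36.4 and 36.2 FPKM in Control, 34.2, 34.3 and 32.7 FPKM in siLEF1 and 35.9, 39.7 and 39.3 FPKM in siKDM4A. Only siLEF1 was apart from Control, by -0.11 (SE 0.027, adjusted p = 0.02), a call that was not held with scaled libraries (-0.08). EXO1 and BLM, a nuclease and a helicase of repair, were higher in siKDM4A by 0.32 and 0.30, and the BLM call was held in 1 of 6 fits. BRIP1 did not pass in any comparison.

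UHRF1, which reads hemimethylated DNA behind the fork and brings the maintenance methyltransferase to it, was the member that moved most in siLEF1. Its levels were 42.1, 39.8 and 43.5 FPKM in Control, 24.2, 24.1 and 23.8 FPKM in siLEF1 and 43.7, 44.2 and 43.2 FPKM in siKDM4A. The siLEF1 libraries were far below the rest, and Control and siKDM4A overlapped. The fold change was 0.577 in siLEF1 (log2 -0.79, SE 0.036, adjusted p = 1.7e-05), 1.81 between the knockdowns (0.86, SE 0.023, adjusted p = 2.2e-06) and 1.05 in siKDM4A (0.07, 95% interval -0.02 to 0.15, adjusted p = 0.23). UHRF1 lies at chr19:4903080-4962154 on the plus strand. Relative to PCNA in the same library it was at 0.281 ± 0.00477 in Control, 0.164 ± 0.0029 in siLEF1 and 0.261 ± 0.00655 in siKDM4A.

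The other chromatin genes went in both directions. CHAF1B was lower in siLEF1 by 0.20 (adjusted p = 0.033), held in 1 of 6 fits that left out a library and lost with scaled libraries and with the replicate block. The subunits of chromatin assembly factor, CHAF1A and CHAF1B, were higher in siKDM4A (0.32 and 0.34). Their ratio was 2.98 ± 0.142 in Control, 3.73 ± 0.225 in siLEF1 and 2.92 ± 0.153 in siKDM4A. SLBP, which binds histone transcripts, was higher in siKDM4A (0.28, adjusted p = 0.00025). HELLS, a chromatin remodeller, fell in both knockdowns, by 0.28 in siLEF1 (adjusted p = 0.0056) and 0.45 in siKDM4A (adjusted p = 0.00057). NASP, a histone chaperone, was at -0.14 in siKDM4A (adjusted p = 0.025), held in 2 of 6 fits and not with scaled libraries (-0.10). CDCA7, a partner of HELLS, was higher in siLEF1 (0.31, adjusted p = 0.017, held in 2 of 6 fits) and did not pass in siKDM4A (0.20, adjusted p = 0.1). ATAD2 did not pass in any comparison.

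Of the G1/S regulators, the E2F genes E2F1 and E2F8 were higher in both knockdowns, and E2F2 passed in neither. E2F1, an activator of the set, was at 18.3, 17.5 and 17.9 FPKM in Control, 19.8, 19.8 and 21.6 FPKM in siLEF1 and 23.4, 23.4 and 23.6 FPKM in siKDM4A. The groups were ordered without overlap. The fold change was 1.14 in siLEF1 (log2 0.18, SE 0.043, adjusted p = 0.017, held in 4 of 6 fits), 1.31 in siKDM4A (0.39, SE 0.030, adjusted p = 0.00014) and 1.15 between the knockdowns (0.20, SE 0.040, adjusted p = 0.0075). Its own promoter, at the start of the gene at chr20:33675683-33686404, held E2F letters at 2 places, which are shown above. E2F8, a repressor of the same family, rose by 0.29 in siLEF1 (adjusted p = 0.038, held in 1 of 6 fits) and 0.50 in siKDM4A (adjusted p = 0.0013).

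CCNE2 encodes cyclin E2, a partner of CDK2 at the G1/S boundary. It was at 2.72, 2.91 and 2.13 FPKM in Control, 1.98, 1.83 and 1.98 FPKM in siLEF1 and 2.63, 3.05 and 2.89 FPKM in siKDM4A. The siLEF1 libraries were below all others. The log2 fold change of -0.40 in siLEF1 did not pass (SE 0.129, adjusted p = 0.058, and 0.01 with voom), and the direct difference of 0.54 did (SE 0.089, adjusted p = 0.0032). Of its 4397 exon bases, 1629 overlap INTS8 on the other strand, a gene at 4.98 FPKM, and whether reads were counted by strand is not given in the sources used here.

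**Figure D4:**
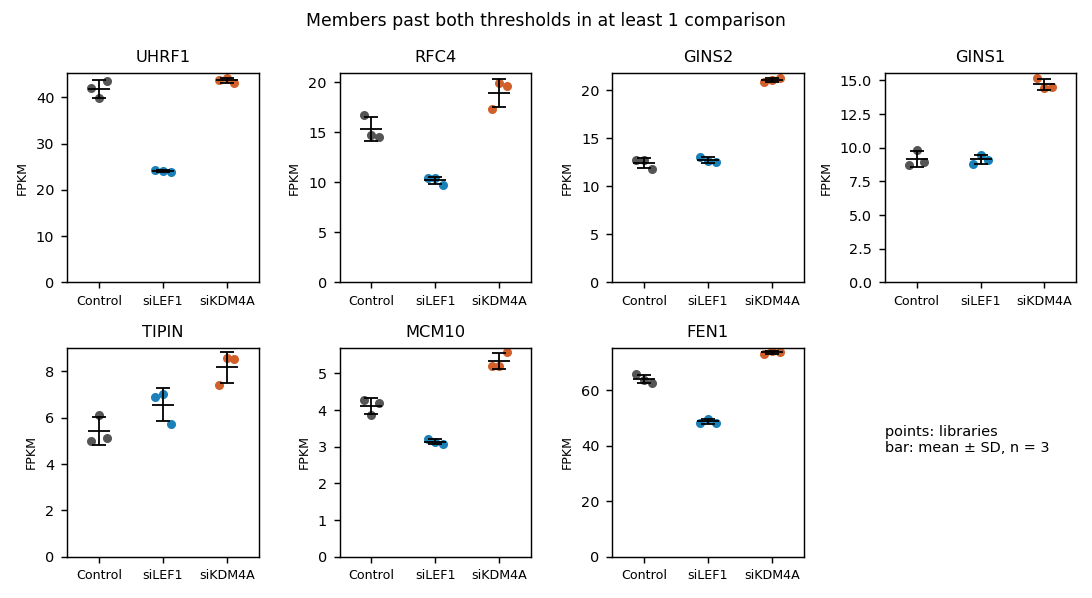
FPKM in each library for the 7 members past both thresholds in at least 1 comparison, with the mean and SD of 3 libraries per group. UHRF1, RFC4, MCM10 and FEN1 were lowest in siLEF1. RFC4, MCM10, FEN1, GINS1, GINS2 and TIPIN were highest in siKDM4A, where GINS2 reached 20.9 to 21.3 FPKM, while UHRF1 in siKDM4A overlapped Control.

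The E2F letters were spread over members of every response. Of members with a promoter window, they were found for 18 of the 29 that were higher in siKDM4A, 4 of the 7 that were lower and 7 of the 11 that did not pass. The counts for siLEF1 were 9 of 12, 9 of 16 and 11 of 19. Of the 6 members raised in the direct comparison, GINS1, GINS2 and UHRF1 held the letters, and FEN1, RFC4 and MCM10 did not.

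A further 63 genes of replication and S phase, from origin recognition to the pocket proteins, were measured for comparison. In siKDM4A against Control, 21 of them were higher (33.3%, against 23.2% of genes at 1 FPKM or more) and 10 were lower (15.9%, against 27.1%), with a median log2 fold change of 0.07. In siLEF1 the shares were near those of such genes, with 17 higher (27%, against 23.3%) and 14 lower (22.2%, against 26.9%) and a median of -0.04. Between the knockdowns 20 were higher (31.7%, against 27%) and 13 lower (20.6%, against 28.1%), with a median of 0.12. Origin recognition and firing genes were higher in 6 and lower in 3 of 18 cases in siKDM4A. The other E2F, pocket protein and partner genes were higher in 1 and lower in 3 of 10.

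Few of these 63 passed the fold threshold. SAMHD1, which degrades the deoxynucleotides that ribonucleotide reductase supplies, was at 23.6, 22.4 and 22.4 FPKM in Control, 20.2, 18.7 and 18.7 FPKM in siLEF1 and 12.7, 11.7 and 12.3 FPKM in siKDM4A, which was the lowest group without overlap. It was lowered in siKDM4A against Control (log2 -0.89, SE 0.043, adjusted p = 2.4e-05) and against siLEF1 (-0.64, SE 0.048, adjusted p = 9.3e-05). ORC3, a subunit of the origin recognition complex, was raised in siLEF1 from 9.89, 11.4 and 9.77 FPKM to 16.7, 15.2 and 16.2 FPKM (0.63, SE 0.069, adjusted p = 0.00063). POLD4, a small subunit of polymerase delta, was raised there too, from 1.05, 0.824 and 1.31 FPKM to 1.76, 1.96 and 2.41 FPKM (0.89, SE 0.195, adjusted p = 0.013). In the direct comparison ORC3 was lower in siKDM4A (-0.35) and POLD4 was lowered (-0.81, adjusted p = 0.0087). POLE3, a subunit of polymerase epsilon, and BRCA1, a repair factor, were raised in the direct comparison by 0.75 and 0.64 (adjusted p = 9.7e-06 and 0.0004).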

How the data were processed

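RNA sequencing of CAL-27 cells was analysed in 3 groups of 3 libraries. For each library the authors deposited FPKM values, that is, fragments scaled by gene length and by library size. Per the submitters' processing notes, the tools were Trimmomatic, HISAT2, Cufflinks and HTSeq and the genome build was hg38. Their versions, roles and settings are not given in the sources used here. The deposited FPKM rise in steps of 1 read, so they were turned back into reads. At the exon length of GENCODE 29, 94.37% of 217477 values above 0 were whole within 0.02 reads. For the other genes a step or length that made the values whole was searched for. The 100.0% reached in this way is therefore no check of the method. The totals behind the values were 15263085 to 17126523 reads per library, and 3 reads on 1 kb correspond to between 0.175 and 0.197 FPKM. Replicates differed by more than counting noise (chi-square per gene of 2.01 to 3.53), which alone does not show that they are independent cultures. Each was counted as a sample because the study describes them as independent.

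The test was limma 3.58.1 in R 4.3.3 (lmFit, eBayes with a trend, two-sided) on log2(FPKM + 0.1), fitted over all genes that averaged 0.1 FPKM or more across the 6 libraries compared, with Benjamini-Hochberg adjustment over all genes tested. The pseudocount shrinks the fold changes of low genes. The limma fit was also run on simulated reads for siLEF1 against Control. The simulation changed far fewer genes than passed here and did not take its spread from these replicates. No conclusion is drawn from it. Gene positions are those of GENCODE 29 (GRCh38), and promoter windows those of RefSeq (GRCh38.p14). The members and gene lists were chosen with earlier results of these data known.

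Values in every library are given for members past both thresholds in at least 1 comparison, and for the most abundant and the most changed member of each subgroup. Members named beside these, the ratios between members and the LEF1 letters were picked after their values were seen. Alternatives were other pseudocounts and filters, libraries scaled to a common median ratio, 1 fit of 9 libraries, the replicate number as a block, leaving out each library, and voom on the recovered reads, which was added after seeing the data and used library totals in place of TMM scaling. A marker gene with no row in these files was not analysed here. Numbers give counting depth only, and p-values measure the spread between 3 cultures of 1 cell line.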

Additional observations from a re-analysis of the deposited data

How the results depend on the processing

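The alternatives gave 798 values of single genes, for the members given in every library above and not for all 57. Of these values, 732 kept their call, 52 lost a threshold and 14 gained one. Among values past the p threshold in either fit, 0 changed direction. A value past no threshold counts as kept even if its sign changed, as for PCNA in siLEF1 (-0.02, and 0.01 with scaled libraries). With scaled libraries, the median log2 fold change of the members was 0.00 in siLEF1 and 0.25 in siKDM4A, and 5 members were lower in siKDM4A. With voom on the recovered reads, 2 members were lowered in siLEF1, UHRF1 and RFC4. Fits that left out 1 library have fewer samples. Over them, 1 to 2 members were lowered in siLEF1, 6 to 10 were higher, and the median ran from -0.05 to -0.03. The count of higher members was 7 without Control replicate 1, 6 without Control replicate 3, and 7, 8 and 9 without siLEF1 replicate 1, 2 and 3. Over the same fits, 5 to 7 members were lower in siKDM4A against Control (5 without siKDM4A replicate 1 or 3), and 3 to 5 in the direct comparison (3 without siLEF1 replicate 1 or any siKDM4A replicate). Same-numbered libraries did not deviate together (correlations of -0.04 to 0.043), so no pairing by number was seen in the values. Whether same-numbered cultures were handled together is not given in the sources used here. With the replicate block, 10 members were higher and 16 lower in siLEF1, 30 and 7 in siKDM4A, and 33 and 4 in the direct comparison. The block changed no count of members past the fold threshold. Voom with TMM scaling was not run, since the files hold FPKM. The fewest reads behind a member in a library were 128, and counting error weighs most on such low members, among them GINS4 and CCNE2.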
